A study of Sus scrofa with 6 samples.

Results

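The pig miRNA array of this study carried 4 probes for the mature miRNAs of the miR-143 and miR-145 genes, 1 for each arm of each hairpin, out of 322 pig miRNA probes. They were taken by name and are miR-143-3p, miR-143-5p, miR-145-5p and miR-145-3p. The arrays measured left atrial (LA) RNA from 6 pigs, each on an array of its own. The 3 paced animals had undergone bursts of rapid pacing of the right atrium, after a beta blocker (esmolol hydrochloride), and developed short self-terminating episodes of atrial fibrillation (AF). The 3 sham animals were operated without burst pacing, and whether they received the blocker is not stated. LA tissue was taken on the next day, when the rhythm was normal. The methods describe Large White pigs of 3 months, while the sample labels speak of neonatal piglets. No transgene or knockout was involved, and the RNA came from LA biopsies, not from sorted cells.

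The genes of miR-143 and miR-145 are neighbours in mammalian genomes and are transcribed together into 1 primary RNA. They are best known as miRNAs of differentiated smooth muscle, where serum response factor and its cofactor myocardin drive them and where they favour the contractile over the proliferative state. In heart tissue they are therefore commonly read as miRNAs of the vessel wall, though other mesenchymal cells also make them. Each hairpin is cut into a 5p and a 3p strand, of which miR-143-3p and miR-145-5p are the guide strands that accumulate, while miR-143-5p and miR-145-3p are the strands mostly discarded. In the RefSeq gene table of the Sscrofa11.1 assembly MIR143 and MIR145 are consecutive entries on the same chromosome, with 0 gene starts between them. CSNK1A1 is the next entry after MIR145. No coordinates are given, because the array files name no genome build.

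The 4 target sequences are shown because they let the 4 probes be compared base by base. They are those printed in the array files, from 5′ to 3′, with the seed (bases 2 to 8, which pair with a target mRNA) in capitals.
miR-143-3p: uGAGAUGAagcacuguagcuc
miR-143-5p: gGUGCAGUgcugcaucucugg
miR-145-5p: gUCCAGUUuucccaggaaucccuu
miR-145-3p: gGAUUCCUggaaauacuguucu
The 4 seeds all differ. No other target among the 322 on the array had the same bases 2 to 8 as a member, or the same bases 2 to 7. The targets are 21, 21, 24 and 22 bases long in the order printed, and 10, 13, 12 and 9 of these bases are G or C. The longest run of bases that miR-143-3p shares with miR-145-5p is 3, and it is also 3 with the other arm of its own hairpin. With miR-145-3p it is 5. Against all other targets on the array without gaps, miR-143-3p matched miR-24-1-5p best, with 13 identical positions over an overlap of 16 bases. The probe of miR-24-1-5p was well above background on 0 arrays. Next came miR-22-3p and miR-139-3p, each with 12 identical positions, over 16 and 21 bases. Their probes were well above background on 6 and 0 arrays. For miR-145-5p the best matches were miR-26a, miR-23a and miR-133b, each with 12 identical positions, over 22, 21 and 19 bases. The longest run shared with another target was 7 bases for miR-143-3p (with miR-142-5p) and 8 bases for miR-145-5p (with miR-191). The probes of miR-142-5p and miR-191 were well above background on 0 and 6 arrays. The arms of the miR-145 hairpin can form 17 Watson-Crick pairs over 21 bases without a gap, and those of miR-143 can form 15 over 19.

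The guide strands gave signals far above background, and the discarded strands gave signals close to it or at it. Signals are the median scanner intensity of 9 repeat spots, in scanner units. An array's background was the median of its 786 empty spots, and a probe over this by more than 3 of their SDs is called well above background. The empty-spot median was 214, 64.7 and 117 units in sham replicates 1, 2 and 3 and 399, 242.5 and 261 units in paced replicates 1, 2 and 3, so that the background was higher on each paced array than on any sham array.

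Every one of the 6 arrays had miR-143-3p well above background. Sham replicates 1, 2 and 3 gave scanner signals of 10361, 7534 and 6745 units. Paced replicates 1, 2 and 3 gave 4920, 6776 and 4743 units. Paced replicate 2 and sham replicate 3 were nearly equal before normalization, and the other paced arrays lay below all sham arrays. These signals were 12.3 to 117 times the empty-spot median of their array.

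miR-145-5p was also well above background on all 6 arrays. Its signal was 17210, 14104 and 13194 units in the sham replicates and 9285, 13637 and 10997 units in the paced replicates. This was 23.3 to 218 times the empty-spot median. On both probes sham replicate 1 gave the highest signal, and on both the paced arrays 1 and 3 gave the lowest signals.

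miR-145-3p, the discarded strand of miR-145, was well above background on 3 sham and 2 paced arrays. Its signal was 422, 214 and 255 units in the sham replicates and 413, 456 and 407 units in the paced replicates. In paced replicate 1 this was only 1.04 times the empty-spot median, and the probe was not well above background there. On the other arrays it was 1.56 to 3.30 times the empty-spot median.

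miR-143-5p stayed at background throughout and was well above it on 0 arrays. Its signal was 179, 70.5 and 125 units in the sham replicates and 326, 265 and 250 units in the paced replicates. These signals were between 0.818 and 1.09 times the empty-spot median, so its values follow the background of each array. They are no measure of the miRNA, and any difference computed from them is one of background.

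**Figure D1:**
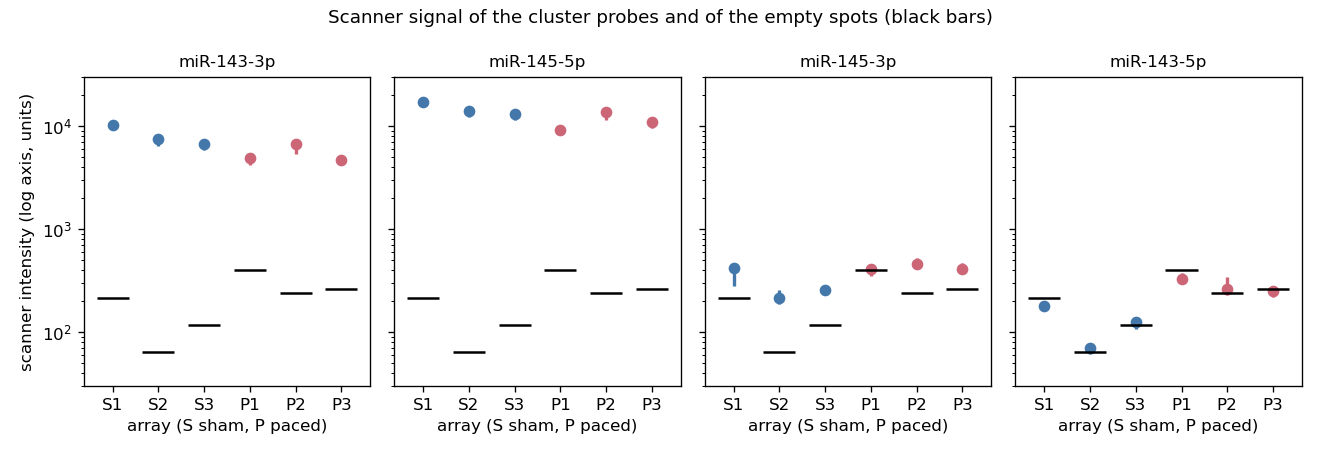
Scanner intensity (log axis, scanner units) of the 4 probes on each array, for sham replicates 1 to 3 (S1 to S3, blue) and paced replicates 1 to 3 (P1 to P3, red). Points are medians of 9 repeat spots, vertical lines run from the lowest to the highest spot, and black bars are the median of the 786 empty spots of the same array. miR-143-3p and miR-145-5p lie far above the bars on every array, miR-145-3p lies at the bar in P1, and miR-143-5p lies at the bar throughout.

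The question asked of these arrays was whether the brief AF episodes change LA miRNA levels. For that comparison the scanner values were corrected for background, quantile-normalized between arrays and placed on a log2 scale, and all 322 probes were tested with limma.

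miR-143-3p had lower values in paced animals. Sham replicates 1, 2 and 3 had normalized log2 values of 12.83, 12.87 and 12.68. Paced replicates 1, 2 and 3 had values of 12.60, 12.52 and 12.30. All paced values were under the sham values, with a gap of 0.083 between the lowest sham and the highest paced value. The sham mean was 12.79 ± 0.10 and the paced mean 12.47 ± 0.15 (SD, n = 3 each). They differed by -0.32 on the log2 scale, with an SE of 0.10. limma gave an unadjusted p of 0.0160 and an adjusted p of 0.323, so the difference passed 0.05 before adjustment over 322 probes but not after it. On a linear scale it is a change of -20.0%, with a 95% interval from -32.2% to -5.49%. The exact permutation test over the 6 arrays gave p = 0.1, which is the smallest p that 3 animals against 3 allow. In whole tissue, fewer cells that make a miRNA and less of it per cell cannot be told apart. Separation without overlap in this direction occurred for 10.2% of all 322 probes. A probe well above background in every animal is called bright, and 104 probes were. Among them it occurred for 4.81%, which are 5 probes, and 0 of the 104 separated in the other direction. At an unadjusted p of 0.05, 7.14% of all probes were lower and 3.42% higher in paced animals, 10.6% in all. Among the 104 probes these shares were 2.88%, 0.962% and 3.85%. The adjusted threshold of 0.05 was passed by 0% of probes.

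Set against the sham mean, miR-143-3p stood at 87.3%, 82.7% and 71.0% in paced replicates 1, 2 and 3. The sham animals themselves ranged from 92.5% to 106%. Paced replicate 3 had the lowest value, and without it the difference was -0.23 with an unadjusted p of 0.0456. Without sham replicate 2 the difference was -0.28 and the unadjusted p rose to 0.0586, past the 0.05 threshold. The adjusted p ranged from 0.0850 (without paced replicate 1) to 0.772 when 1 animal was left out. The SE over the repeat spots of an array, which measures spot noise and not the spread between animals, was 0.014 to 0.048 on the log2 scale.

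miR-145-5p, the partner guide strand, showed a smaller difference. The sham replicates had normalized log2 values of 13.60, 13.88 and 13.59, and the paced replicates 13.61, 13.58 and 13.52. The groups overlapped, and sham replicate 2 stood above all other animals. The sham mean was 13.69 ± 0.17 and the paced mean 13.57 ± 0.05 (SD, n = 3 each). They differed by -0.12 (SE 0.10), which limma did not separate from the spread between animals (adjusted p = 0.723). The 95% interval from -0.35 to 0.12 includes both 0 and the difference measured for miR-143-3p. Without sham replicate 2 the difference was -0.019. The probe held a rank between 5 and 8 by brightness on every array. Since quantile normalization gives all arrays the same set of top values, the normalized values of this probe could differ only as values near such ranks do.

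For miR-145-3p the normalized log2 values were 8.03, 8.24 and 8.07 in the sham replicates and 7.79, 8.13 and 8.05 in the paced replicates. The low value is paced replicate 1, the array on which the probe was at background, and the other paced animals lay within the sham range. The difference was -0.12 (SE 0.11, limma, adjusted p = 0.737), and it was -0.025 without paced replicate 1. For miR-143-5p the measured means were 6.88 ± 0.042 in sham and 6.85 ± 0.12 in paced (SD, n = 3 each), both at background level.

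**Figure D2:**
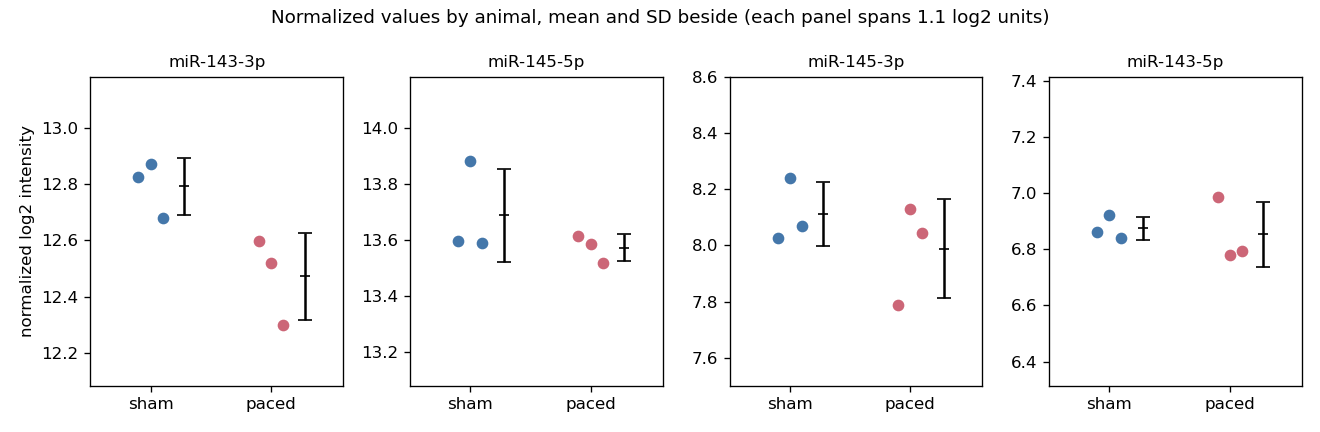
Normalized log2 intensity of the 4 probes in the 3 sham (blue) and 3 paced (red) animals, in the order of their replicate numbers, with the mean and SD of each group beside the points. The panels span equal widths on the log2 scale, each centred on the mean of its own probe. The paced values of miR-143-3p lie below the sham values with a gap of 0.083, while the groups overlap for the other probes.

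The median difference was 0.0031 over all 322 probes and -0.029 over the 104 bright probes. Of the 4 probes, 1 reached an unadjusted p of 0.05 and 0 reached the adjusted threshold in limma, beside 10.6% and 0% of all 322 probes. Among the 104 probes, miR-143-3p had the lowest p and was at rank 3 of the most negative differences, and miR-145-5p was at rank 19 by p and rank 23 by difference. The pooled within-group SD was 0.13 for miR-143-3p and 0.12 for miR-145-5p, at percentiles 30.3 and 26.4 of the 104 probes, whose median was 0.16. Without sham replicate 2 the SD of miR-145-5p was 0.040.

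**Figure D3:**
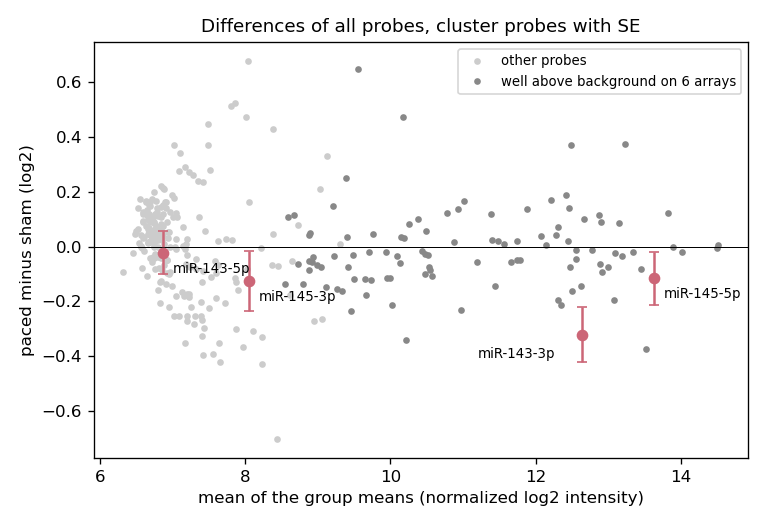
Difference between paced and sham means (log2) against the mean of the group means (normalized log2 intensity) for all 322 probes. Dark grey points are the 104 bright probes, light grey points the others, and red points with SE bars the 4 probes of the cluster. miR-143-3p lies at -0.32, near the lower edge of the dark points, and miR-145-5p at -0.12 lies among them.

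Since both guide strands come from 1 primary transcript, their values were also compared within each array, where any scaling factor of the array cancels. The log2 value of miR-143-3p minus that of miR-145-5p was -0.77, -1.01 and -0.91 for sham replicates 1, 2 and 3. It was -1.02, -1.06 and -1.22 for paced replicates 1, 2 and 3. The paced values were all lower than the sham values, but sham replicate 2 and paced replicate 1 were only 0.012 apart. The sham mean was -0.89 ± 0.12 and the paced mean -1.10 ± 0.11 (SD, n = 3 each). Relative to miR-145-5p, miR-143-3p thus differed by -0.21 (SE 0.092), with a 95% interval from -0.46 to 0.05 computed from the within-group SD. The exact two-sided permutation test gave p = 0.1, the smallest it can give, and 0.15 after adjustment over the 3 within-array differences computed. That adjusted value rests in part on the difference that uses miR-143-5p, a probe at background on every array. The paced values were also below the sham values without overlap under each other background, normalization and repeat-spot setting run, with changes from -0.24 to -0.19 and gaps as small as 0.0028. Those settings reuse the same 6 arrays. Without sham replicate 1 the change was -0.14.

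The same relation can be read on linear scales. After subtraction of the empty-spot median, the scanner signal of miR-143-3p was 59.7%, 53.2% and 50.7% of that of miR-145-5p in the sham replicates and 50.9%, 48.8% and 41.7% in the paced replicates. On this scale sham replicate 3 and paced replicate 1 were at nearly the same percentage and the groups overlapped. In the authors' processed values it was 57.9%, 52.8% and 52.9% in sham and 51.7%, 46.1% and 41.5% in paced animals, without overlap. The percentages describe probe signals and not molecule numbers, since probes differ in how well they bind.

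Within the miR-145 hairpin the groups overlapped through 1 array. The log2 value of miR-145-3p minus that of miR-145-5p was -5.57, -5.64 and -5.52 in the sham replicates and -5.83, -5.46 and -5.47 in the paced replicates. Paced replicate 1, where miR-145-3p was at background, was the lowest, and the other paced animals lay above all sham animals. The mean difference between groups was -0.0097 (SE 0.13, exact permutation test, p = 1), with a 95% interval from -0.36 to 0.34. Without paced replicate 1 it turned to 0.11 (exact permutation test, p = 0.2). With no normalization it was 0.48 and the paced values were above the sham values (exact permutation test, p = 0.1), so this comparison depended on the processing. For the miR-143 hairpin the 3p minus 5p value differed by -0.30 between groups (exact permutation test, p = 0.1). It ran from -1.04 with no normalization to -0.057 on the authors' processed values, where the groups overlapped (p = 0.9). Since miR-143-5p was at background on every array, this value is no comparison of the arms.

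**Figure D4:**
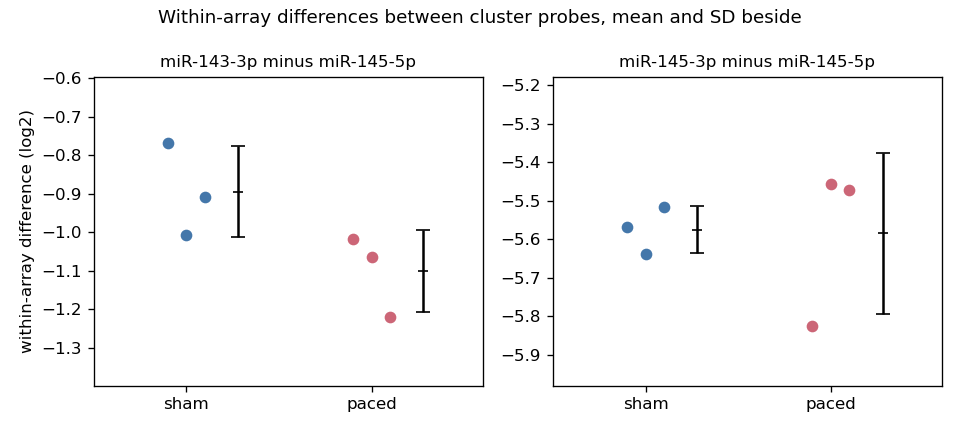
Within-array differences in normalized log2 intensity, miR-143-3p minus miR-145-5p (left) and miR-145-3p minus miR-145-5p (right), in sham (blue) and paced (red) animals, with mean and SD beside the points. On the left, paced values run from -1.22 to -1.02 and sham values from -1.01 to -0.77. On the right, paced replicate 1 lies alone at -5.83.

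The authors' processed values, which are intensities on a linear scale, gave the same order of groups for miR-143-3p. They were 7159, 7683 and 6388 in the sham replicates and 6112, 5687 and 5029 in the paced replicates. The sham mean was 7077 ± 651 and the paced mean 5609 ± 545 (SD, n = 3 each), a change of -20.7%. For miR-145-5p the sham mean was 12996 ± 1355 and the paced mean 12091 ± 256 (SD, n = 3 each), a change of -6.96%. Those of miR-145-3p were 162 ± 20.1 and 155 ± 34.2 (SD, n = 3 in each group). The methods' t-test gave miR-143-3p an unadjusted p of 0.0402 on these values and 0.0393 on the normalized log2 values. After adjustment over all probes these were 0.498 and 0.399. In limma on the log2 of the processed values the difference of miR-143-3p was -0.34 (SE 0.16, unadjusted p = 0.0891, adjusted p = 0.586).

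The size of the difference depended on how arrays were brought to a common scale, and its sign did not for the guide strands. With the 5S rRNA spots of the array as the reference, miR-143-3p differed by -0.46 (SE 0.27, unadjusted p = 0.0885, adjusted p = 0.184) and miR-145-5p by -0.25 (SE 0.27, adjusted p = 0.536). Under this scaling the groups of miR-145-5p did not overlap, with sham values from 13.715 to 13.78, paced values from 13.49 to 13.52 and a within-group SD of 0.027. The SE of 0.27 is the same for each of the 4 probes in that fit, since limma moved the spread of each to a shared value. With the median of the 104 probes as the reference, the differences were -0.45 (SE 0.19, adjusted p = 0.0317) and -0.24 (SE 0.19, adjusted p = 0.298). These scalings left the median of the 104 probes at -0.091 and -0.084 and moved the median of all 322 probes, most of them dim, to 0.43 and 0.44. With no normalization between arrays miR-143-3p differed by -0.62 (unadjusted p = 0.0660) and miR-145-5p by -0.40, while the median of the 104 probes was -0.25. The weak probe of miR-145-3p turned positive under all 3, at 0.23, 0.24 and 0.077. The higher empty-spot signal of the paced arrays makes up 3.58% to 8.11% of the miR-143-3p signal in paced and 0.858% to 2.07% in sham animals. With no background correction the difference of miR-143-3p was -0.32. Its unadjusted p was above 0.05 with 5S rRNA scaling, with no normalization and in limma on the processed values, and at or below 0.05 under the other processing settings run with all animals.

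**Figure D5:**
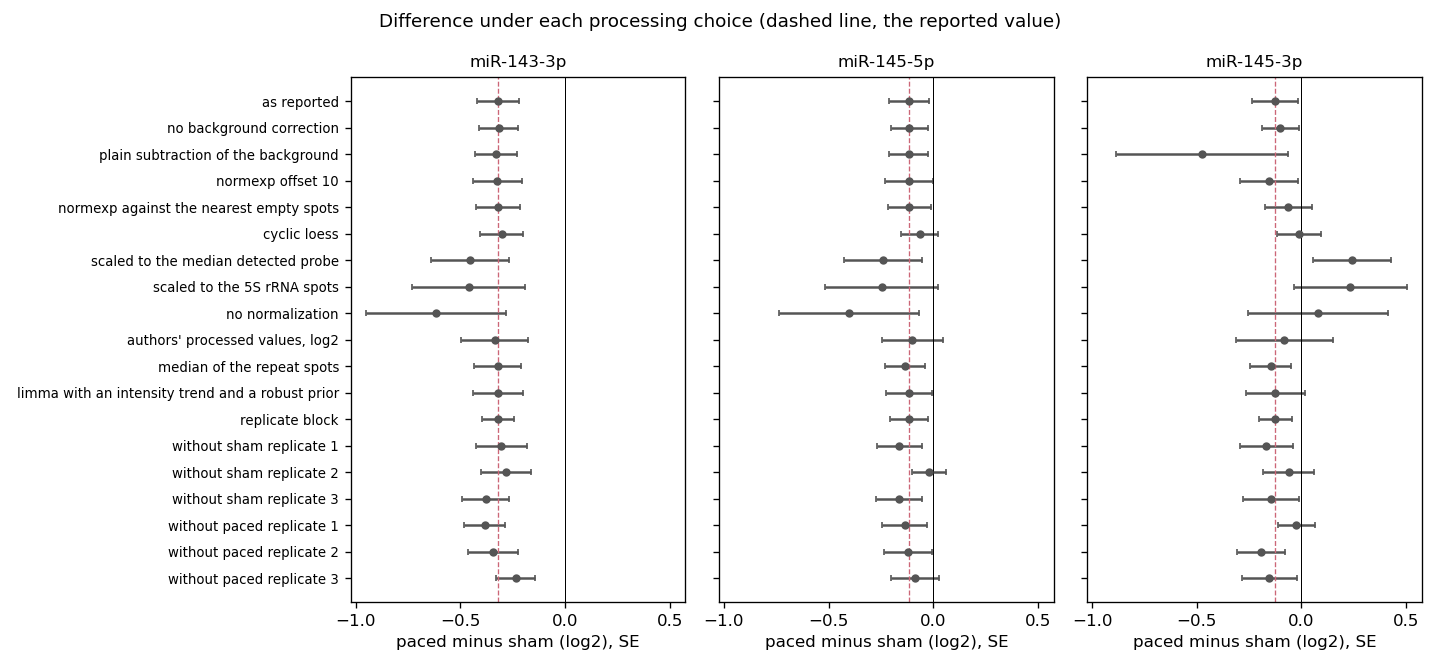
Difference between paced and sham animals (log2, with SE) of miR-143-3p, miR-145-5p and miR-145-3p under the processing choices named on the left and with each animal left out, from limma. The dashed line is the reported value and the solid line is 0. miR-143-3p stays below 0 throughout, from -0.62 to -0.23, and miR-145-5p from -0.40 to -0.019, while miR-145-3p crosses 0.

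The miRNAs whose values ran most like those of miR-143-3p over the 6 arrays were sought among the other 103 bright probes. The 5 with the highest Pearson correlation were miR-199a-5p (0.88), a miRNA of fibroblasts and other mesenchymal cells, miR-181a (0.87), the muscle-rich miR-22-3p (0.85), miR-30c-5p (0.84) and miR-130a (0.81). Without the pair of arrays farthest from the median of miR-143-3p these values were 0.68, 0.86, 0.93, 0.57 and 0.66. The paced and sham values of miR-22-3p did not overlap either, with a difference of -0.19 (SE 0.10, limma, adjusted p = 0.495), while the other 4 overlapped. For miR-145-5p the 5 were miR-339 (0.95), miR-328 (0.86), miR-331-3p (0.82), miR-15b (0.78) and miR-30c-5p (0.75). Without sham replicate 2 and paced replicate 3, the arrays farthest from its median, they were 0.44, -0.48, -0.35, 0.34 and 0.80. Only miR-30c-5p was in both lists. Between the guide strands themselves the correlation was 0.71, and 0.028 without the arrays farthest from the median of either. These are descriptions over 6 arrays that share the group difference and the normalization, and the list members were picked for their correlation.

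Other miRNAs known to act on the state of smooth muscle cells were counted from a list. It held 19 miRNAs with 28 probes, 14 of them well above background on all arrays, and miR-1, miR-133a and miR-133b in it are also markers of cardiomyocytes. At an unadjusted p of 0.05, 2 of the 28 were lower and 0 higher in paced animals, and 0 passed after adjustment in limma. Over all 322 probes 7.14% were lower and 3.42% higher at this p. The 2 are miR-18a, of the miR-17/92 cluster (-0.35, SE 0.14, adjusted p = 0.407), and miR-24-2-5p, the discarded strand of a miR-24 hairpin (-0.39, SE 0.086, adjusted p = 0.134). Each of these probes was well above background on only 3 arrays, so both differences come from dim probes. The median difference of the list was 0.021, with 10 values below and 18 above 0, beside 157 below and 165 above over all 322 probes. miR-221-3p and miR-222, which favour the proliferative state that miR-143 and miR-145 oppose, differed by 0.047 (SE 0.16) and 0.042 (SE 0.18). miR-21, which promotes smooth muscle growth, differed by 0.37 (SE 0.28, adjusted p = 0.670). miR-26a, which acts on differentiation of these cells, differed by -0.0015 (SE 0.066).

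Markers of other LA cell types were read from the same arrays as a check of the tissue. Of the 7 cardiomyocyte probes (miR-1, miR-133a, miR-133b, miR-208b and miR-499), 5 were well above background on all arrays, as were all 5 fibroblast probes (miR-199a, miR-199b and miR-214) and miR-126-3p of endothelium. In limma, 0 of the cardiomyocyte and 0 of the fibroblast probes reached an unadjusted p of 0.05, beside 10.6% of all probes. Lists of 7 and 5 probes are too short to be set against that share. Of the 7 cardiomyocyte differences, 3 were below and 4 above 0. The lowest was that of miR-133a-5p, well above background on 6 arrays, at -0.34 (SE 0.16, limma, unadjusted p = 0.0651, adjusted p = 0.470). The cardiomyocyte probes miR-133a-3p and miR-133b were the 2 brightest on all 6 arrays, and quantile normalization gives these ranks the same values on each array, so they had almost no room to differ between groups. The endothelial guide strand miR-126-3p differed by -0.025 (SE 0.10, adjusted p = 0.935), and its partner miR-126-5p, well above background on 0 arrays, by 0.37 (SE 0.13, unadjusted p = 0.0244, adjusted p = 0.357) with all paced above all sham values. Of 5 leukocyte probes, for miR-142, miR-150 and miR-155, 0 reached an unadjusted p of 0.05 in limma. Only 1 of them was well above background on all arrays, and 3 were so on 0 arrays. Summed normalized intensity of the other 5 cardiomyocyte probes ran from 13800.5 to 16319.9 in sham and from 11493 to 22302 in paced animals, and that of the endothelial probes from 8345 to 9986 and from 8110 to 9397. The summed intensity of the fibroblast probes ran from 22785 to 24932 in sham and from 21113 to 26154 in paced animals. Of the 3 red blood cell probes, miR-486 was lower in paced animals by an unadjusted p of 0.00301 (-0.70, SE 0.16, adjusted p = 0.134), miR-451 differed by -0.37 (SE 0.20, adjusted p = 0.511), and miR-144 was well above background on 0 arrays. Their summed intensity ran from 12198 to 17089 in sham and from 8241 to 12293 in paced animals. The part of blood or of vessel content in the lower values of miR-143-3p was not tested.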

How the data were processed

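LA RNA of 3 sham and 3 paced pigs was read on 1-colour (Cy3) arrays, 1 per animal. Groups and replicate numbers came from the sample titles. The scanner files deposited by the authors hold the median intensity of each of 3968 spots on a linear scale without background subtraction. The authors also deposited 1 processed intensity per probe, with array medians from 48.7 to 59.2, on a linear scale and in the direction of the scanner values (Spearman's rho across probes from 0.988 to 0.996). How these were background-corrected and normalized is not given in the sources used here.

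All spots were corrected with normexp (offset 50), and the 2898 miRNA spots were quantile-normalized, transformed to log2 and averaged over 9 repeat spots per probe. limma 3.58.1 (R 4.3.3) was fitted to all 322 probes, paced against sham, with Benjamini-Hochberg adjustment. Single within-array differences were tested with exact two-sided permutation tests. The fit was tested on simulated data. The number of arrays limits the precision. Python 3.11.15 with matplotlib 3.10.9 made the figures. Alternatives covered background, normalization, probe filter, repeat-spot summary, test, replicate number as a block and each animal left out. Named miRNAs are the 4 probes, the 5 most correlated with each probe well above background on all arrays, and list members at an unadjusted p of 0.05, with further list members given for their known role. Members and lists were chosen with earlier results of these data known. Slide and scan are not recorded in the files, so no batch could be examined. PCR, protein and histology data were not analysed here.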

Additional observations from a re-analysis of the deposited data

How the results depend on the processing

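The signs of miR-143-3p and miR-145-5p were kept under every alternative run, and so was that of miR-143-3p minus miR-145-5p. For miR-143-3p only scaling to the median probe well above background passed the adjusted threshold (-0.45, adjusted p = 0.0317), a setting that also called miR-143-5p, at background on all arrays, in the other direction (0.59, adjusted p = 0.00564), and the adjusted p ran to 0.873 over the others. With an animal left out, miR-143-3p ran from -0.38 to -0.23, miR-145-5p from -0.16 to -0.019, miR-145-3p from -0.20 to -0.025 and miR-143-3p minus miR-145-5p from -0.26 to -0.14. miR-145-3p turned to 0.24 when scaled to that median, 0.23 when scaled to 5S rRNA and 0.077 with no normalization, and its lowest value was -0.47 (SE 0.41) with plain subtraction. The background values of miR-143-5p turned to 0.59, 0.58 and 0.43 under these, to 0.041 with plain subtraction, 0.038 with nearest empty spots and 0.016 with cyclic loess, and ran from -0.088 to 0.015 with an animal left out. miR-145-3p minus miR-145-5p turned to 0.013 with no background correction, 0.051 with nearest empty spots, 0.052 with cyclic loess, 0.48 with no normalization and 0.017 on the authors' processed values, was lowest at -0.36 with plain subtraction, and ran from -0.074 to 0.11 with an animal left out. The cause of these turns was not tested. The within-group SD moved with no normalization to 0.30 for miR-143-3p, 0.25 for miR-145-5p (0.027 scaled to 5S rRNA), 0.36 for miR-145-3p and 0.39 for miR-143-5p. It moved for miR-143-5p to 0.26 scaled to the median probe, 0.38 scaled to 5S rRNA and 0.81 on the processed values, and for miR-145-3p to 0.56 with plain subtraction. Past 5 SD of the empty spots, miR-145-3p was well above background on 3 arrays. With an animal left out the SD of miR-145-5p ran from 0.040 to 0.14 and that of miR-143-3p from 0.088 to 0.15. With the replicate block, miR-143-3p stayed at -0.32 (SE 0.076, adjusted p = 0.246) and miR-145-5p at -0.12 (adjusted p = 0.662), and no call changed. The deviations of same-numbered animals correlated at 0.17, -0.014 and 0.21. These values cannot show whether same-numbered animals shared a slide or scan, which is not recorded. The filter on dim probes left no test for miR-143-5p. Signal over background limits miR-145-3p and miR-143-5p, and the number of animals limits all tests.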
